A study of Mus musculus with 6 samples.

Results

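The genes described here are 42 genes of the mitotic machinery, taken by symbol: the cyclins and kinases that start mitosis, the spindle checkpoint, the chromosomal passenger complex, the centromere and kinetochore, the spindle motors, condensin, the factors that hold and release sister chromatids, and the proliferation markers Mki67 and Top2a. They were chosen with earlier results of these data known. All 42 were found among the 55487 genes of the count table, and all 42 were among the 17315 genes with enough counts to be tested. RNA was sequenced after poly(A) selection in 6 libraries of mouse cells grown out of embryonic stem cells (ESCs), 3 from Ts1Cje ESCs and 3 from wild-type ESCs. Every library was taken after 4 days with FGF2, BMP-4, activin A and VEGF, which were given to drive the cells toward primitive macrophage progenitors, and the ESCs of both genotypes had been kept with LIF and KnockOut serum replacement. Ts1Cje mice, a model of Down syndrome, carry a distal piece of chromosome 16 in an extra copy and are also known to have a deletion on chromosome 12. Per the series' design text, the comparison was made because microglia, the macrophages of the brain, are fewer in Ts1Cje embryos. The labels give each library a lot number but not whether lots are separate ESC lines, clones or cultures, so the p-values rest on a spread between samples that may be technical only.

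Most of these genes are switched on together late in the cell cycle, between DNA replication and division, and their mRNAs fade after the cell divides. CDK1 with its cyclins starts mitosis, condensin folds the chromosomes, kinetochores built on CENP-A chromatin tie them to spindle fibres, and the spindle checkpoint blocks the anaphase-promoting complex until every chromosome is attached. Separase then cuts cohesin, and the passenger complex and spindle motors finish the division. Pluripotent cells and early progenitors divide fast and express these genes strongly.

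Library totals ran from 16577065 to 19010856 counts. The 76 tested genes of the extra chromosome 16 segment (chr16:90225680-97962622, mm10) had a median log2 fold change of 0.48 in Ts1Cje over wild type, and none of the 42 genes lies in it (0 of 42). Markers of the intended macrophage lineage were scarce in both genotypes: of 7 markers, Ptprc (CD45) and Cx3cr1 had 0 counts in every library. Adgre1 and Itgam had 0 counts in every Ts1Cje library and at most 1 and 3 counts in a wild-type library, and Spi1 had at most 6 counts in any library. Only Csf1r (not called) and Cd68 (called higher) passed the filter on low counts. On the TPM scale, a level per transcript length, the 7 summed to 28.6 to 35.8 TPM in Ts1Cje libraries and to 17.4 to 28.4 TPM in wild-type libraries. Marker levels of other cell types differed between the genotypes. The summed level of 8 pluripotency markers was 766 to 1248 TPM in Ts1Cje libraries, against 82.8 to 284 TPM in wild-type libraries, and 7 of the 8 were called higher. All 5 primed epiblast markers were called higher, with sums of 944 to 1197 TPM in Ts1Cje libraries and 162 to 239.8 TPM in wild-type libraries. Endoderm markers were called higher in 7 of 8 cases, with sums of 588 to 879.7 TPM in Ts1Cje libraries and 159 to 196 TPM in wild-type libraries. Mesoderm markers were called lower in 5 of 8 cases, with sums of 349.95 to 578 TPM in Ts1Cje libraries and 2292 to 2349 TPM in wild-type libraries. For hemogenic endothelium and blood, 6 of 9 markers were called lower and 3 higher, and the sums were 100.5 to 134 TPM in Ts1Cje libraries and 306 to 341 TPM in wild-type libraries. Fibroblast or feeder markers, of which 3 of 7 were tested and 2 called lower, summed to 5.41 to 6.79 TPM in Ts1Cje libraries and to 10.5 to 26.2 TPM in wild-type libraries. The part of these marker differences in the mitotic gene differences was not tested. In bulk RNA, fewer dividing cells and less mitotic mRNA per dividing cell cannot be told apart.

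The mitotic genes were modestly lower in Ts1Cje cells. At an adjusted p of 0.05 in edgeR's quasi-likelihood test, 23 of the 42 were lower (54.8%), 0 were higher and 19 were not called; at an unadjusted p below 0.05, 0 were higher, and DESeq2, limma-voom and every other setting tried also called 0 higher. Fold changes below are given ± SE and come from this test with their adjusted p. Over all 17315 tested genes, 20.5% were called lower and 23.3% higher, and among the 9065 genes with a mean log2 CPM (counts scaled to the library total) of at least 4, a level that all 42 exceed, 27.3% were called lower. The median log2 fold change of the 42 was −0.22, a fold of 0.856, while that of all tested genes was −0.0062. The libraries of the groups did not overlap, with Ts1Cje lower, for 29 of the 42 genes (69.0%), a pattern seen in 26.4% of all tested genes. That share was not computed for genes with a mean log2 CPM of at least 4, so it is not matched for level. The called genes were 11.0% to 31.5% lower, and 5 of them were lower by at least 25%. Of the 19 genes that were not called, 12 had estimates below 0 and 7 above 0, within −0.23 to 0.14.

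**Figure D1:**
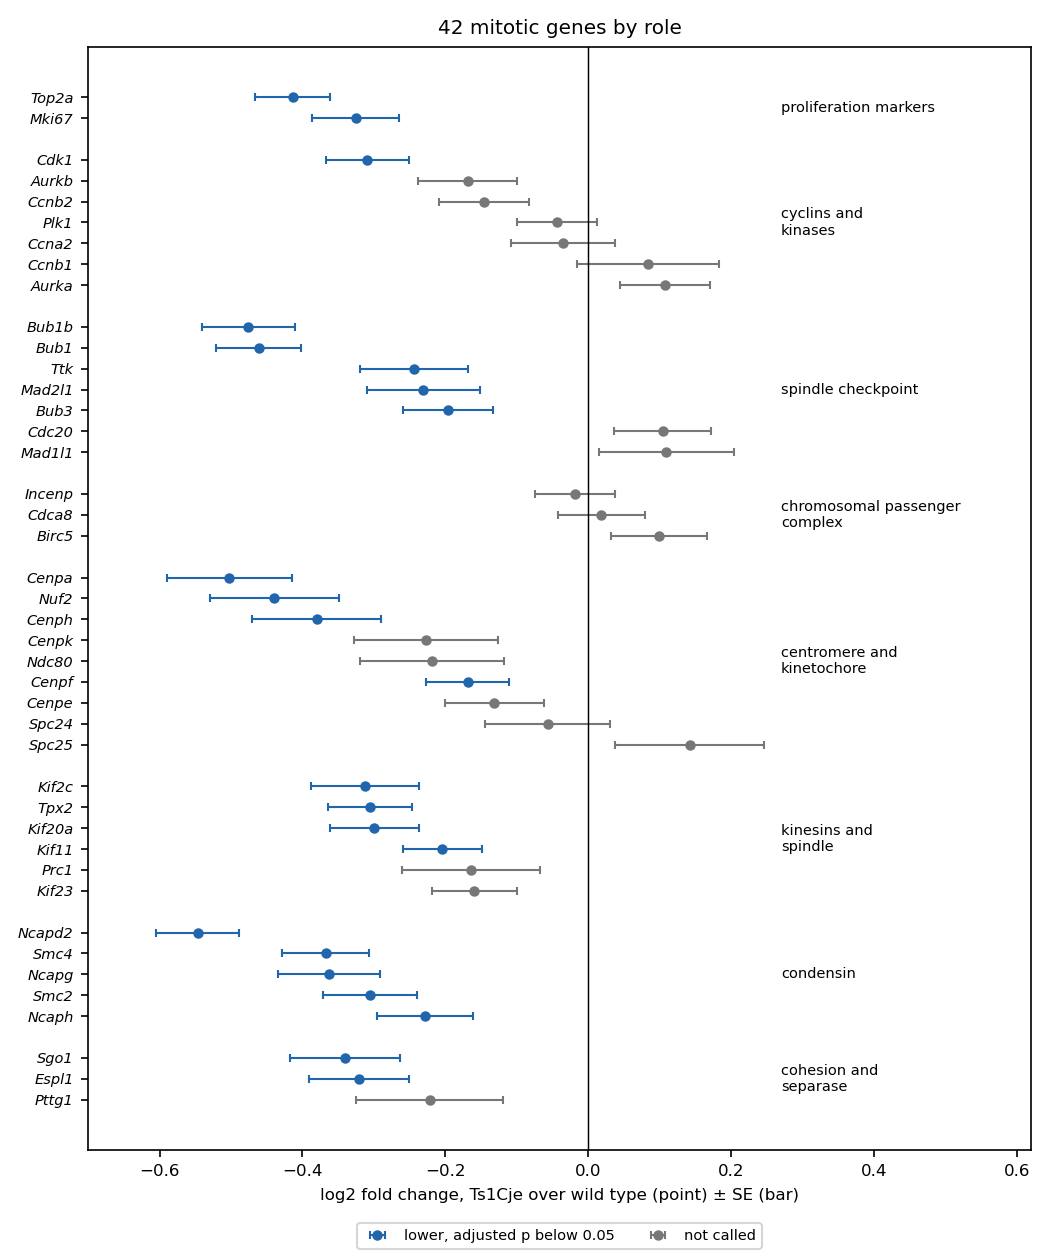
Log2 fold change of Ts1Cje over wild type for each of the 42 mitotic genes, grouped by role (points, with bars for ± SE; blue, lower at an adjusted p below 0.05; grey, not called). All 5 condensin genes lie below 0 in blue, the 3 passenger complex genes (Aurkb is among the cyclins and kinases) sit around 0, and Ncapd2 has the lowest value at −0.55.

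The same picture held in each library. The 42 genes took 0.681%, 0.679% and 0.678% of all counts in Ts1Cje libraries, against 0.788%, 0.804% and 0.796% in wild-type libraries. Their summed level was 4527 ± 21.0 TPM in Ts1Cje cells and 5138 ± 86.1 TPM in wild-type cells (SD, n = 3 each). Set against the mean of the wild-type libraries, the median of the 42 genes was −0.22, −0.20 and −0.23 log2 units in Ts1Cje replicates 1 to 3, and −0.037, 0.017 and 0.018 in wild-type replicates 1 to 3. Wild-type replicate 1 lay slightly toward the Ts1Cje libraries, and without it 26 of the 42 genes were lower and their median was −0.26. This library also differed from the other wild-type libraries beyond the 42 genes. Chi-square per degree of freedom over tested genes, a measure of difference in counts, was 14.7 and 18.7 against replicates 2 and 3, and 4.84 between those. Pou5f1 had 183 TPM in it, against 50.1 and 35.2 TPM in replicates 2 and 3. The part of this in the mitotic values was not tested. The 42 genes are spread over 15 chromosomes, and the tested genes within 5 Mb of each had median log2 fold changes between −0.25 and 0.15. The lowest was around Pttg1, whose own estimate was −0.22, and the highest around Cdk1, whose own estimate was −0.31. The part of such neighbourhoods in the values of single genes was not tested.

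**Figure D2:**
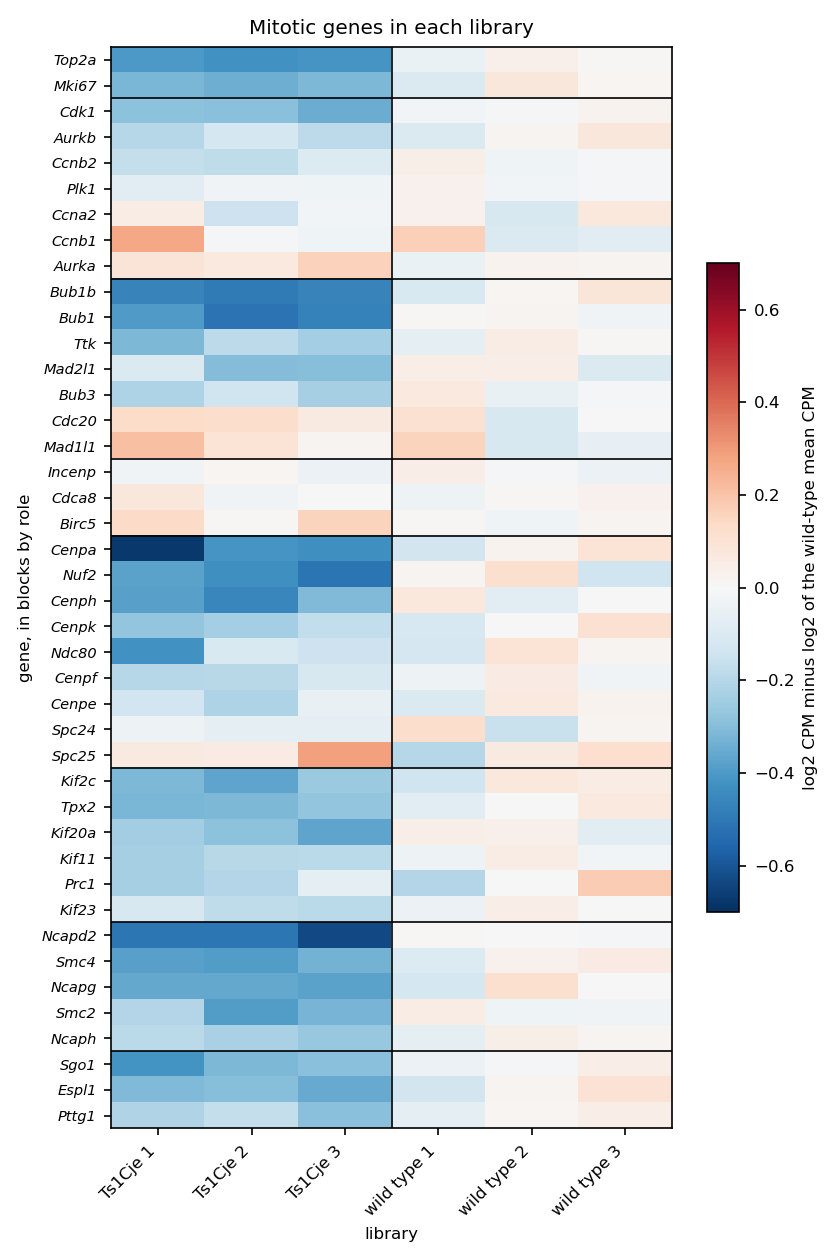
Log2 CPM of the 42 mitotic genes in each of the 6 libraries, minus the log2 of the wild-type mean (blue, below it; red, above it), in blocks by role. Values reach from −0.68 to 0.29 in Ts1Cje libraries and from −0.21 to 0.18 in wild-type libraries, and the condensin rows are blue in all 3 Ts1Cje columns.

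Late cell cycle genes are known to share promoter elements. The promoters of the 42 genes were searched for a pair of such elements: the core of the cell cycle genes homology region (CHR), TTTGAA, which the DREAM and B-MYB–MuvB complexes bind, and the CCAAT box, CCAAT, which NF-Y binds. Both strands were searched (TTCAAA and ATTGG on the other strand), and neither motif contains the other. RefSeq promoter windows on GRCm38.p6, from 250 bases before to 50 after the transcription start, were matched for 35 of the 42 genes. The windows of 6 genes are printed as examples, written 5′ to 3′ along the gene's strand, with every match to either motif in capitals. They are the lowest condensin gene, a proliferation marker and the mitotic kinase, all called lower, and then an activator of the anaphase-promoting complex, Aurora A and cyclin B1, none of them called. The windows are chr6:125191537-125191836 for Ncapd2, chr11:99024140-99024439 for Top2a, chr10:69352863-69353162 for Cdk1, chr4:118437294-118437593 for Cdc20, chr2:172370521-172370820 for Aurka and chr13:100786437-100786736 for Ccnb1, all on the minus strand.
Ncapd2: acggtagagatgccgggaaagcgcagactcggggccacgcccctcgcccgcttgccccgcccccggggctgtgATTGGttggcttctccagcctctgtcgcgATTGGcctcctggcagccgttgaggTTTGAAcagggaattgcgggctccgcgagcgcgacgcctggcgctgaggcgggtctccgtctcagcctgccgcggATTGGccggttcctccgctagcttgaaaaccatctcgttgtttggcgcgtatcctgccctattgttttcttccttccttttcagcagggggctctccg
Top2a: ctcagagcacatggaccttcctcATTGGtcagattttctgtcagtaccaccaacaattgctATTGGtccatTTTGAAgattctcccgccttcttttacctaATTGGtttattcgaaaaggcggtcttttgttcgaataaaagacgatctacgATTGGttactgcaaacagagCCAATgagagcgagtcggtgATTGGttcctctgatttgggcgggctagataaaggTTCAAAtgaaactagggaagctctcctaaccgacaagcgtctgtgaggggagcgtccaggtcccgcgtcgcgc
Cdk1: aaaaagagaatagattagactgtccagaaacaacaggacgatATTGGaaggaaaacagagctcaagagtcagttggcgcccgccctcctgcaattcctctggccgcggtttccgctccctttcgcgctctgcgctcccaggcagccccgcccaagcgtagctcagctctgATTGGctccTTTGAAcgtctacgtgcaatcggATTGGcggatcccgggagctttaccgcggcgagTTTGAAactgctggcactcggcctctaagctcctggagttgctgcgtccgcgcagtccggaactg
Cdc20: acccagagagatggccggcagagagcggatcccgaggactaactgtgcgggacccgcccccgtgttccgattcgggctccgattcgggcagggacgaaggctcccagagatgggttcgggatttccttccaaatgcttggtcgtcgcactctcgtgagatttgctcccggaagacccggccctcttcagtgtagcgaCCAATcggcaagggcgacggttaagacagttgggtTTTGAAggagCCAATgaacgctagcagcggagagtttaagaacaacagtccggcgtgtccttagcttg
Aurka: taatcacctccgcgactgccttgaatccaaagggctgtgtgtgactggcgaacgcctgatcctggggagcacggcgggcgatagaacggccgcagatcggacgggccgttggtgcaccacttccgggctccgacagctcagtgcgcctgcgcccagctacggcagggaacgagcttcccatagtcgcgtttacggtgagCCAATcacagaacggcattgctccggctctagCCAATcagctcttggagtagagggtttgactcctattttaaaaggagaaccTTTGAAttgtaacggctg
Ccnb1: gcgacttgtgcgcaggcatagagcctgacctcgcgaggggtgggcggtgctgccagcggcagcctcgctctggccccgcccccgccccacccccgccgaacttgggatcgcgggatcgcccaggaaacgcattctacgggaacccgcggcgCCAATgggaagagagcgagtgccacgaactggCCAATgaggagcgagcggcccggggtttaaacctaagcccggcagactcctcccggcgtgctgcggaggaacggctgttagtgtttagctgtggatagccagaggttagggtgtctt

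The CHR core was found in 23 of the 35 windows (65.7%), against 18.1% of all 27025 promoters and 11.7% of the 11715 promoters of tested genes. The CCAAT box was found in 27 of 35 (77.1%), against 37.9% of all promoters and 38.5% of those of tested genes. Both together were found in 21 of 35, against 7.12% of all promoters and 5.12% of those of tested genes. Genes that were called and genes that were not held the motifs at close shares, which were not tested: the CHR core was in 14 of 20 windows of genes called lower and in 9 of 15 windows of genes not called, and the CCAAT box was in 16 of 20 and in 11 of 15. In the printed examples the CHR core starts 123 bases before the start of Ncapd2, at −179 and −23 in Top2a, at −71 and −15 in Cdk1, at −18 in Cdc20 and at 33 in Aurka, while the Ccnb1 window holds CCAAT boxes at −99 and −67 and no match to TTTGAA. Variants of the CHR core were not searched, so a window without a match may still hold the element in another form. A match is a stretch of letters and does not show binding.

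**Figure D3:**
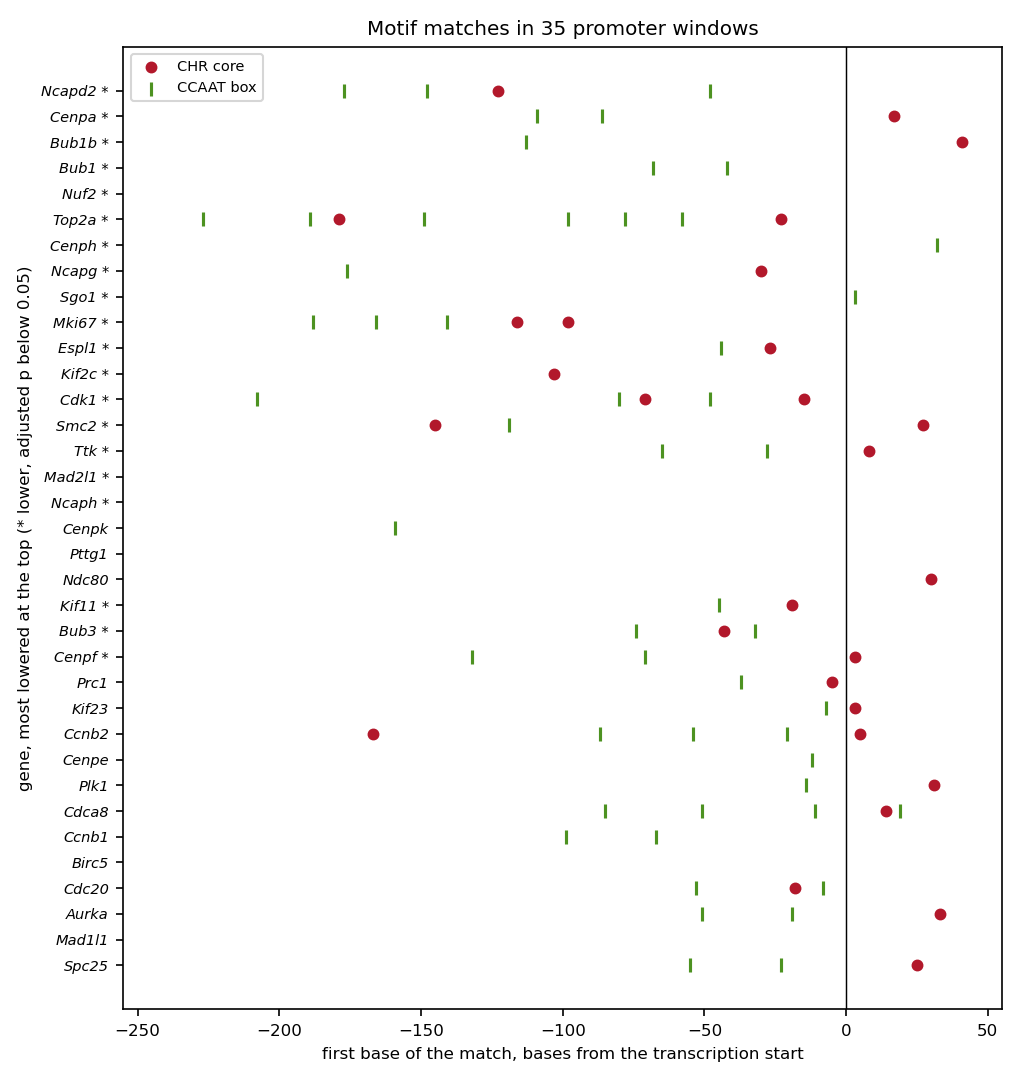
Positions of CHR core (dots) and CCAAT box (bars) matches on either strand in the 35 promoter windows, in bases from the transcription start, with the most lowered gene at the top (an asterisk marks genes called lower). Matches of both kinds lie in windows from the top to the bottom of the order, called or not.

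Both proliferation markers were lower. Mki67, whose protein coats mitotic chromosomes, had 481, 475 and 483 CPM in Ts1Cje replicates 1 to 3, against 560.3, 635 and 607 CPM in wild-type replicates 1 to 3 (log2 fold change −0.33 ± 0.061, adjusted p = 0.00185). Top2a, the topoisomerase that untangles sister DNA (ENSMUSG00000020914, chr11:98992943-99024189, minus strand), had 679, 669 and 674 CPM in Ts1Cje libraries and 871, 919 and 904 CPM in wild-type libraries (log2 fold change −0.41 ± 0.052, adjusted p = 0.00018). For each gene the Ts1Cje libraries lay close together and below all 3 wild-type libraries, and Top2a mRNA was lower by 24.9%.

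Among the 7 cyclins and kinases, 1 was called lower (2 without wild-type replicate 1), and their median log2 fold change was −0.044. Cdk1, the kinase that drives entry into mitosis (ENSMUSG00000019942, chr10:69335146-69352938, minus strand), had 124, 124 and 119 CPM in Ts1Cje libraries, against 150.1, 151 and 155 CPM in wild-type libraries. It was lower by 19.3%, with no overlap between the groups (log2 fold change −0.31 ± 0.058, adjusted p = 0.0018). Its partner Ccnb1, cyclin B1, was not called: it had 310.1, 256 and 252 CPM in Ts1Cje libraries and 288, 239.9 and 244 CPM in wild-type libraries (log2 fold change 0.083 ± 0.10, adjusted p = 0.534). In both genotypes replicate 1 was the highest for Ccnb1, the groups overlapped, and the estimate turned to −0.019 without Ts1Cje replicate 1. The other cyclins were Ccna2 (cyclin A2), at 235 ± 15.97 CPM in Ts1Cje cells and 241 ± 15.9 CPM in wild-type cells (log2 fold change −0.035 ± 0.073, adjusted p = 0.727), and Ccnb2 (cyclin B2), at 93.4 ± 2.88 CPM in Ts1Cje cells and 103 ± 2.51 CPM in wild-type cells (log2 fold change −0.15 ± 0.063, adjusted p = 0.0854). Pseudogenes named Ccnb1-ps and Ccnb2-ps had 1.42% and 1.17% of the counts of their parent genes. Reads that match both copies were not measured, and their part in the values of these cyclins was not tested.

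The Aurora and Polo kinases were not called. Aurka, Aurora A of the spindle poles, had 103, 101 and 108 CPM in Ts1Cje libraries, against 93.4, 98.2 and 97.6 CPM in wild-type libraries (log2 fold change 0.11 ± 0.063, adjusted p = 0.201). It was the only one of the 42 genes with every Ts1Cje library above every wild-type library. Aurkb, Aurora B, the enzyme of the passenger complex, had 92.8, 98.0 and 94.0 CPM in Ts1Cje libraries, against 99.3, 108 and 113 CPM in wild-type libraries (log2 fold change −0.17 ± 0.069, adjusted p = 0.0748). Every Ts1Cje library lay below every wild-type library for Aurkb. It passed the threshold without wild-type replicate 1 and, with all libraries kept, with upper-quartile scaling or a replicate block. Plk1, the Polo-like kinase, had 177 ± 3.40 CPM in Ts1Cje cells and 182 ± 3.59 CPM in wild-type cells (log2 fold change −0.044 ± 0.056, adjusted p = 0.559). On the TPM scale, which is per transcript length, the ratio of Cdk1 to Ccnb1 within a library was 0.388 ± 0.0390 in Ts1Cje libraries and 0.509 ± 0.0551 in wild-type libraries, and that of Aurkb to Aurka was 0.786 ± 0.0433 in Ts1Cje libraries and 0.950 ± 0.0384 in wild-type libraries (SD, n = 3 each). These pairs of genes, and the pairs given further on, were chosen after their values were seen, and no test was made on them.

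**Figure D4:**
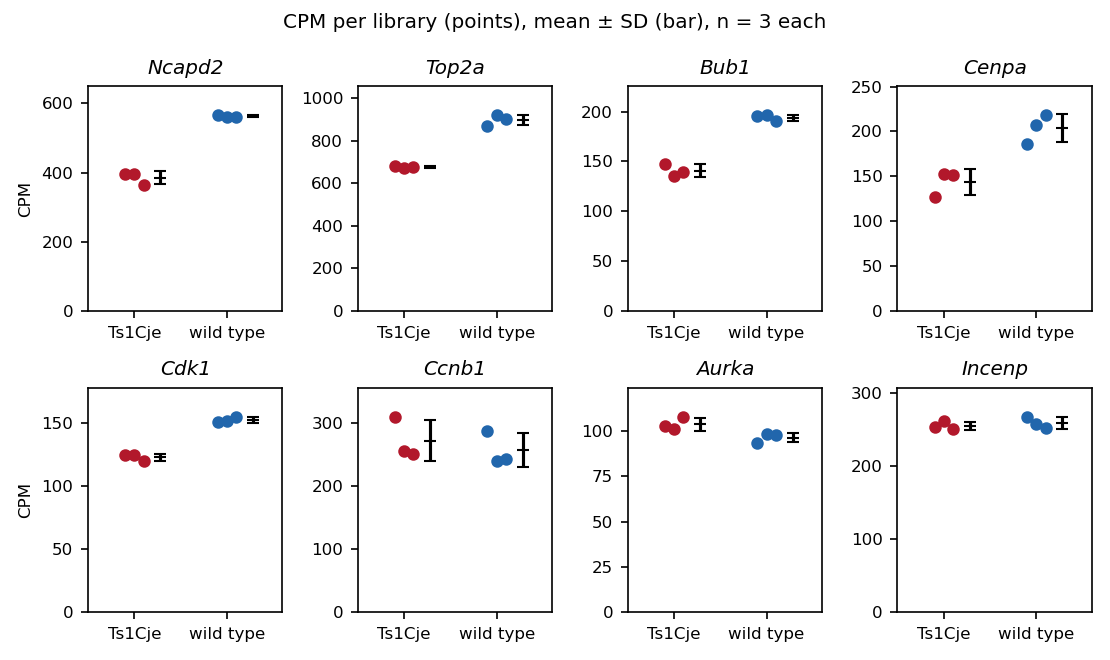
CPM in each library (points) with mean ± SD (bars), n = 3 each, for 8 genes, Ts1Cje left in red and wild type right in blue, on axes that start at 0. Ncapd2, Top2a, Bub1, Cenpa and Cdk1 are lower in every Ts1Cje library, while the groups overlap for Ccnb1 and Incenp and the Ts1Cje points lie slightly higher for Aurka.

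Of the 7 spindle checkpoint genes 5 were lower, with a median log2 fold change of −0.23. Bub1 (ENSMUSG00000027379, chr2:127801122-127831865, minus strand), a kinase that gathers the checkpoint proteins at kinetochores, had 147, 135 and 139.7 CPM in Ts1Cje libraries and 195, 196 and 190.4 CPM in wild-type libraries. It was lower by 27.4% (log2 fold change −0.46 ± 0.060, adjusted p = 0.000202). Bub1b, which encodes BUBR1, a part of the inhibitor of the anaphase-promoting complex, had 145, 142 and 145 CPM in Ts1Cje libraries and 186, 203 and 213 CPM in wild-type libraries, and was lower by 28.1% (log2 fold change −0.48 ± 0.066, adjusted p = 0.000295). For both genes the highest Ts1Cje library stood well below the lowest wild-type library. The calls of the other 3 were less firm: Bub3, the partner of both (log2 fold change −0.20 ± 0.063, adjusted p = 0.0288), Mad2l1 (MAD2), which binds CDC20 (log2 fold change −0.23 ± 0.080, adjusted p = 0.0392), and Ttk (MPS1), the kinase at the head of the pathway (log2 fold change −0.24 ± 0.076, adjusted p = 0.0247). The count of 5 became 3 without Ts1Cje replicate 1, 2 without Ts1Cje replicate 3, and 3 without wild-type replicate 1, 2 or 3, with Bub1 and Bub1b kept each time. In edgeR's test Bub3 was not called without Ts1Cje replicate 1 or 3 or wild-type replicate 1 or 3, Mad2l1 without Ts1Cje replicate 2 or 3 or wild-type replicate 1 or 2, and Ttk without Ts1Cje replicate 1 or 3 or wild-type replicate 2 or 3.

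The 2 checkpoint genes that were not called had estimates above 0. Mad1l1 (MAD1), the kinetochore anchor of MAD2, had 61.3, 56.7 and 53.7 CPM in Ts1Cje libraries and 59.1, 49.0 and 51.0 CPM in wild-type libraries (log2 fold change 0.11 ± 0.094, adjusted p = 0.38), and the groups overlapped. Cdc20, the activator that the checkpoint holds back, had 263 ± 6.42 CPM in Ts1Cje cells and 245 ± 18.8 CPM in wild-type cells (log2 fold change 0.10 ± 0.068, adjusted p = 0.244). The ratio of Bub1b to Cdc20 on the TPM scale was 0.240 ± 0.00741 in Ts1Cje libraries and 0.360 ± 0.0454 in wild-type libraries.

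Of the 3 other passenger complex genes 0 were called in edgeR's test, 0 had an unadjusted p below 0.05, 0 were called with DESeq2 or any other setting tried, and their median log2 fold change was 0.018. Birc5 (survivin), which docks the complex on the centromere, had 102, 93.9 and 104 CPM in Ts1Cje libraries, against 94.1, 91.5 and 94.7 CPM in wild-type libraries (log2 fold change 0.10 ± 0.067, adjusted p = 0.26). Incenp, the scaffold, had 254, 262 and 252 CPM in Ts1Cje libraries, against 268, 257 and 252 CPM in wild-type libraries (log2 fold change −0.018 ± 0.056, adjusted p = 0.817). Cdca8 (borealin) had 129 ± 4.88 CPM in Ts1Cje cells and 128 ± 2.82 CPM in wild-type cells (log2 fold change 0.018 ± 0.061, adjusted p = 0.83). The groups overlapped for all 3 genes, and the estimates of Incenp and Cdca8 changed sign with 1 library left out.

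The 9 centromere and kinetochore genes included 4 that were lower, with a median log2 fold change of −0.22. Cenpa, the histone H3 variant that marks the centromere (ENSMUSG00000029177, chr5:30666777-30674830, plus strand), had 127, 153 and 151 CPM in Ts1Cje libraries and 186, 207 and 218 CPM in wild-type libraries. It was lower by 29.4% (log2 fold change −0.50 ± 0.087, adjusted p = 0.00122), with replicate 1 the lowest in both genotypes. Cenph, of the inner kinetochore network that sits on CENP-A chromatin, was lower (log2 fold change −0.38 ± 0.091, adjusted p = 0.00696), and Cenpk, of the same network, was at 23.6 ± 0.872 CPM in Ts1Cje cells and 27.6 ± 2.09 CPM in wild-type cells (log2 fold change −0.23 ± 0.10, adjusted p = 0.0965). Cenpf, a large protein of the outer kinetochore, was slightly lower (log2 fold change −0.17 ± 0.058, adjusted p = 0.0383), while Cenpe, the kinesin that carries chromosomes to the spindle equator, was not called (log2 fold change −0.13 ± 0.069, adjusted p = 0.155). In edgeR's test Cenpf lost its call without Ts1Cje replicate 1 or 2 or wild-type replicate 2 or 3, at adjusted p-values of 0.0639 to 0.153, and Cenpe passed the threshold without wild-type replicate 1.

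The 4 subunits of the NDC80 complex, which grips the spindle fibre, had unlike estimates. Nuf2 had 44.4, 42.8 and 40.5 CPM in Ts1Cje libraries and 58.4, 62.3 and 52.3 CPM in wild-type libraries, and was lower by 26.2% (log2 fold change −0.44 ± 0.090, adjusted p = 0.00306). Spc25 had 55.5, 55.2 and 64.8 CPM in Ts1Cje libraries and 46.3, 55.3 and 57.6 CPM in wild-type libraries (log2 fold change 0.14 ± 0.10, adjusted p = 0.305), with overlapping groups. Its estimate was the highest of the 42. Ndc80 itself had 58.7 ± 6.84 CPM in Ts1Cje cells and 68.3 ± 5.11 CPM in wild-type cells (log2 fold change −0.22 ± 0.10, adjusted p = 0.105), and Spc24 had 53.4 ± 0.6004 CPM in Ts1Cje cells and 55.5 ± 5.34 CPM in wild-type cells (log2 fold change −0.057 ± 0.087, adjusted p = 0.633). Ndc80 passed the threshold without wild-type replicate 1 and, with all libraries kept, with a replicate block. On the TPM scale the ratio of Nuf2 to Spc25 was 0.369 ± 0.0478 in Ts1Cje libraries and 0.553 ± 0.0899 in wild-type libraries.

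Among the 6 spindle motor and spindle assembly genes 4 were lower, with a median log2 fold change of −0.25. Tpx2, which activates Aurora A on the spindle, had 212, 213 and 219 CPM in Ts1Cje libraries, against 253, 266 and 278 CPM in wild-type libraries (log2 fold change −0.31 ± 0.059, adjusted p = 0.00225). Kif2c (MCAK), which takes wrong attachments apart, had 87.7, 84.4 and 91.0 CPM in Ts1Cje libraries, against 99.0, 115 and 113 CPM in wild-type libraries (log2 fold change −0.31 ± 0.076, adjusted p = 0.00758). Kif20a, a motor of the late mitotic midzone, had 239, 231 and 218 CPM in Ts1Cje libraries, against 290.2, 289 and 268 CPM in wild-type libraries (log2 fold change −0.30 ± 0.063, adjusted p = 0.00342). The groups did not overlap for these genes. Kif11, the motor that pushes the spindle poles apart, was lower by 13.2% (log2 fold change −0.20 ± 0.055, adjusted p = 0.0129), and its adjusted p in edgeR's test was 0.0685 without wild-type replicate 2. Kif23, a motor of the cleavage midzone, had 133, 127 and 126 CPM in Ts1Cje libraries and 139, 148 and 143 CPM in wild-type libraries (log2 fold change −0.16 ± 0.060, adjusted p = 0.0546), so all its Ts1Cje libraries were below all its wild-type libraries without passing the threshold. Prc1, which bundles midzone fibres, had 115 ± 7.504 CPM in Ts1Cje cells and 129 ± 17.0 CPM in wild-type cells (log2 fold change −0.16 ± 0.10, adjusted p = 0.204). Kif23 and Prc1 passed the threshold without wild-type replicate 1. With all libraries kept, Kif23 also passed it in edgeR's test with DESeq2 size factors (adjusted p = 0.0456), upper-quartile scaling (adjusted p = 0.0276) and a replicate block (adjusted p = 0.0469).

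Condensin, like the pair of proliferation markers, had every gene called: all 5 were lower, with a median log2 fold change of −0.36 and no overlap between the groups for any of them. Ncapd2 (ENSMUSG00000038252, chr6:125168007-125191701, minus strand), a regulatory subunit of condensin I, had 396, 396 and 363 CPM in Ts1Cje libraries and 566, 562 and 559.5 CPM in wild-type libraries. It was lower by 31.5%, the largest change of the 42 (log2 fold change −0.55 ± 0.058, adjusted p = 5.96e-05). Smc4, a core ATPase, had 248, 245 and 256 CPM in Ts1Cje libraries and 302, 329 and 336 CPM in wild-type libraries (log2 fold change −0.37 ± 0.061, adjusted p = 0.000935). Its partner Smc2 had 178 ± 11.9 CPM in Ts1Cje cells and 219.7 ± 6.84 CPM in wild-type cells (log2 fold change −0.31 ± 0.066, adjusted p = 0.00412). Ncapg, another regulatory subunit, had 106, 106 and 105 CPM in Ts1Cje libraries and 124, 147 and 136 CPM in wild-type libraries (log2 fold change −0.36 ± 0.072, adjusted p = 0.00256). Ncaph, the subunit that closes the ring, changed least, with 76.2, 74.2 and 72.3 CPM in Ts1Cje libraries and 83.2, 89.5 and 88.1 CPM in wild-type libraries (log2 fold change −0.23 ± 0.067, adjusted p = 0.0189). The call of Ncaph was lost without Ts1Cje replicate 3 and without wild-type replicate 2 or 3, at adjusted p-values of 0.0689, 0.0802 and 0.0616 in edgeR's test.

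Within condensin, the ratio of the ATPases Smc4 to Smc2 on the TPM scale was 1.48 ± 0.101 in Ts1Cje libraries and 1.54 ± 0.131 in wild-type libraries, a difference within the spread. The ratio of Ncapd2 to Ncaph was 3.56 ± 0.109 in Ts1Cje libraries and 4.45 ± 0.192 in wild-type libraries. Summed counts of the 5 condensin genes were 2.07, 2.05 and 2.01 times those of the 3 passenger complex genes in Ts1Cje libraries, against 2.68, 2.81 and 2.80 times in wild-type libraries. That sum takes Birc5, Incenp and Cdca8 and leaves out Aurkb, which is placed among the cyclins and kinases. These classes had median log2 fold changes of −0.36 and 0.018, so a lower ratio in Ts1Cje libraries follows from setting them against each other. No test was made on it. Such ratios within a library do not depend on how libraries were scaled, but they restate the fold changes given above.

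Of the 3 genes that hold or release sister chromatids 2 were lower. Sgo1 (shugoshin), which protects centromeric cohesin, had 42.8, 46.0 and 46.6 CPM in Ts1Cje libraries, against 55.5, 56.9 and 59.0 CPM in wild-type libraries (log2 fold change −0.34 ± 0.077, adjusted p = 0.00533). Espl1 (separase), the protease that cuts cohesin, had 163 ± 3.05 CPM in Ts1Cje cells and 204 ± 16.4 CPM in wild-type cells (log2 fold change −0.32 ± 0.070, adjusted p = 0.00424). Pttg1 (securin), the inhibitor of separase, had 19.3, 20.0 and 18.3 CPM in Ts1Cje libraries, against 21.4, 22.6 and 23.1 CPM in wild-type libraries (log2 fold change −0.22 ± 0.10, adjusted p = 0.11). Its groups did not overlap either, but it did not pass the threshold.

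Transcript levels per length differed widely between the 42 genes in both genotypes. Cdc20 was the most abundant, at 455 ± 12.8 TPM in Ts1Cje cells and 421 ± 38.1 TPM in wild-type cells (SD, n = 3 each). By the mean over all 6 libraries Top2a came next, at 242 ± 1.37 TPM in Ts1Cje cells and 320.1 ± 7.25 TPM in wild-type cells. Plk1 followed, at 259.6 ± 7.96 TPM in Ts1Cje cells and 266 ± 10.6 TPM in wild-type cells, and then Ncapd2, at 198 ± 10.5 TPM in Ts1Cje cells and 288 ± 8.18 TPM in wild-type cells. The least abundant was Cenpk, at 14.5 ± 0.598 TPM in Ts1Cje cells and 16.9 ± 0.893 TPM in wild-type cells. Abundant and scarce transcripts were found both among the called and among the uncalled genes, since Top2a and Ncapd2 were lower while Cdc20 and Plk1 were not called, and Nuf2, at 21.7 ± 0.971 TPM in Ts1Cje cells and 29.3 ± 3.02 TPM in wild-type cells, was lower while Cenpk was not called.

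The strand used in counting is not given in the sources used here, so reads of overlapping genes on opposite strands may be shared. Of the 42 genes 22 overlap another annotated gene, and for 9 of them that gene has at least 10% as many counts. Of these neighbours, 2 were lower along with a called member: Cdc23, which shares 2327 bases with Kif20a (log2 fold change −0.25 ± 0.057, adjusted p = 0.00504), and Lcorl, which shares 3366 bases with Ncapg (log2 fold change −0.34, adjusted p = 0.0285). Beside members that were not called, Ppwd1, which shares 233 bases with Cenpk and has 137% of its counts, was lower (log2 fold change −0.36, adjusted p = 0.00969), and Elovl1, which shares 53 bases with Cdc20, was higher (log2 fold change 0.46, adjusted p = 0.00374). Rccd1 shares 21810 bases with Prc1 on the opposite strand, has 42.5% as many counts and was not called (log2 fold change −0.14, adjusted p = 0.25). Fgfr2 shares 11674 bases with Bub3, and Exosc9 shares 863 bases with Ccna2.

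Genes around the mitotic machinery were read from 10 further lists with 152 genes, all tested, of which 67 were lower and 9 higher, with a median log2 fold change of −0.18. The counts per list stand beside shares of 20.5% lower and 23.3% higher over all tested genes, and 27.3% lower among those with a mean log2 CPM of at least 4. The list for replication licensing, the loading of DNA replication origins, had 12 of 14 genes lower and a median of −0.36. It is wider than licensing, since it also holds Rrm1 of ribonucleotide reductase. Mcm6 had 261 ± 8.23 CPM in Ts1Cje cells and 373 ± 6.79 CPM in wild-type cells (log2 fold change −0.52 ± 0.055, adjusted p = 6.55e-05). Mcm3, another subunit of the replicative helicase, had 235 ± 6.999 CPM in Ts1Cje cells and 337 ± 10.6 CPM in wild-type cells (log2 fold change −0.52 ± 0.057, adjusted p = 7.64e-05). Of 32 other kinetochore and CENP-A loading genes 15 were lower and 2 higher, with a median of −0.28. With 1 library left out, the counts of lower genes were 8 to 11 for replication licensing and 10 to 14 for these kinetochore genes. For the 10 lists together they were 47 to 65. Zwilch, of the complex that recruits dynein to kinetochores, was lower (log2 fold change −0.49 ± 0.068, adjusted p = 0.000324), and so was Nsl1, of the MIS12 complex of the kinetochore (log2 fold change −0.52 ± 0.087, adjusted p = 0.00102). Mis18a, which takes part in CENP-A loading and lies on the extra chromosome 16 segment, was higher, at 42.8 ± 1.67 CPM in Ts1Cje cells and 31.5 ± 1.47 CPM in wild-type cells (log2 fold change 0.44 ± 0.086, adjusted p = 0.00225).

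Cohesin is the ring around sister chromatids, and the anaphase-promoting complex is the ubiquitin ligase that starts its removal. Each of these lists had 1 gene called higher, a share below the 23.3% of all tested genes. Of 14 cohesin genes 7 were lower and 1 higher, and 4 were lower without Ts1Cje replicate 3 or without wild-type replicate 2. Pds5b, a regulator of cohesin, was lower (log2 fold change −0.83 ± 0.080, adjusted p = 3.39e-05), as was the core subunit Smc1a (log2 fold change −0.45 ± 0.058, adjusted p = 0.000201). The anaphase-promoting complex had 6 of 18 genes lower and 1 higher, with Cdc16 (log2 fold change −0.34 ± 0.063, adjusted p = 0.00188) and Cdc27 (log2 fold change −0.25 ± 0.059, adjusted p = 0.00628) among the lower. Its count of 6 lower stands beside 27.3% lower among tested genes with a mean log2 CPM of at least 4. Of 3 condensin II genes 1 was lower, Ncapg2 (log2 fold change −0.34 ± 0.076, adjusted p = 0.00515). Of 18 other kinesin, spindle and cytokinesis genes 9 were lower and 1 higher, with Kif15 (log2 fold change −0.47 ± 0.059, adjusted p = 0.000171) and Kif14 (log2 fold change −0.46 ± 0.074, adjusted p = 0.000746) among the lower. That count of 9 was 4 without Ts1Cje replicate 2, 3 without wild-type replicate 2 and 5 without wild-type replicate 3.

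Counts of higher genes in some of these lists changed with 1 library left out. The count was 0 for the anaphase-promoting complex (without Ts1Cje replicate 1 or 2, or wild-type replicate 2 or 3) and for the kinesin, spindle and cytokinesis list (without any library but Ts1Cje replicate 3). It was 1 for the other kinetochore genes without Ts1Cje replicate 2 or 3 or wild-type replicate 3, and 2 for cohesin without Ts1Cje replicate 2 and for the G1 and S phase list without wild-type replicate 1.

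Regulators upstream of mitosis were mixed. The list read for the mitotic entry switch had 2 of 12 genes called lower, against 20.5% of all tested genes. Of the 12 genes 9 had estimates below 0, with a median log2 fold change of −0.14. The groups did not overlap, with Ts1Cje lower, for 7 of the 12, a pattern seen in 26.4% of all tested genes, a share not matched for level. The 2 genes called lower were Plk4 (log2 fold change −0.37 ± 0.071, adjusted p = 0.00205) and Cdc25a (log2 fold change −0.33 ± 0.072, adjusted p = 0.00427). Plk4 was placed on this list but is the kinase of centriole duplication and not a part of the entry switch itself. Among 23 genes that control transcription of late cell cycle genes 8 were lower, against 20.5% of all tested genes and 27.3% of those with a mean log2 CPM of at least 4, with a median of −0.032, which ran from −0.058 to −0.0035 with 1 library left out. Foxm1, an activator of G2/M genes, had 101 ± 0.802 CPM in Ts1Cje cells and 130.2 ± 3.89 CPM in wild-type cells (log2 fold change −0.37 ± 0.060, adjusted p = 0.000733), and E2f1 was lower too (log2 fold change −0.69 ± 0.10, adjusted p = 0.000521). Of 11 G1 and S phase cyclins and kinases 6 were lower and 1 higher, with Cdk6 (log2 fold change −1.03 ± 0.12, adjusted p = 0.000139) and Ccnd3 (log2 fold change −0.58 ± 0.090, adjusted p = 0.000625) among the lower.

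The CDK inhibitors, which restrain the cycle, were the list with the most genes higher: 3 of 7 were higher and 1 lower, with a median of 0.61 that became 0.26 without Ts1Cje replicate 3. Cdkn1a (p21) had 81.8 ± 4.19 CPM in Ts1Cje cells and 34.6 ± 4.32 CPM in wild-type cells (log2 fold change 1.24 ± 0.10, adjusted p = 1.17e-05). Cdkn2a, the locus of p16 and p19ARF, had 8.09 ± 2.57 CPM in Ts1Cje cells and 1.32 ± 0.135 CPM in wild-type cells (log2 fold change 2.61 ± 0.28, adjusted p = 6.92e-05). Cdkn1c (p57) went the other way, with 41.4 ± 9.79 CPM in Ts1Cje cells and 98.2 ± 12.6 CPM in wild-type cells (log2 fold change −1.25 ± 0.18, adjusted p = 0.000984). The calls of these 3 inhibitors held in all 15 alternative settings.

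**Figure D5:**
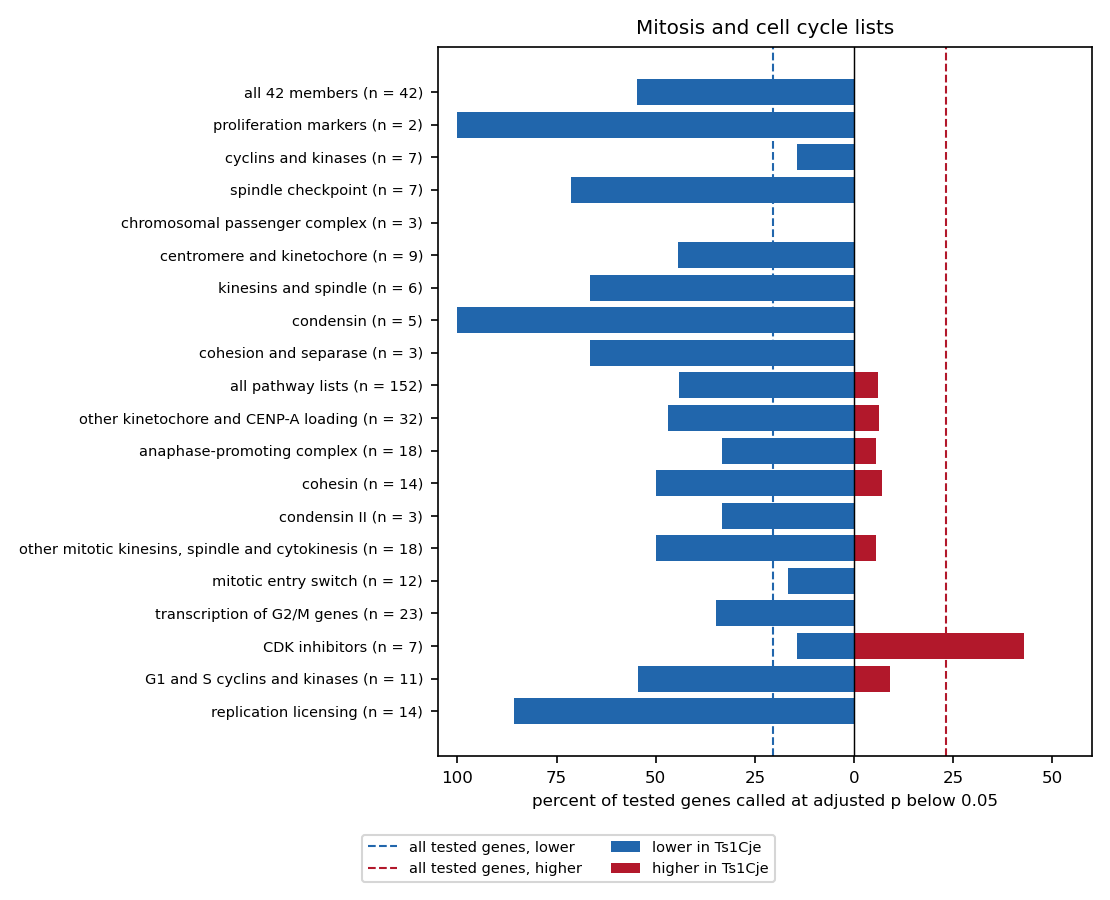
Percent of tested genes called lower (blue, to the left) and higher (red, to the right) in Ts1Cje for the 42 mitotic genes, their 8 classes and the 10 lists around them, with dashed lines at the shares of all tested genes (20.5% lower and 23.3% higher). The condensin and proliferation marker bars reach 100% lower, the passenger complex, here without Aurkb, has no bar, and the CDK inhibitors reach furthest to the right.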

How the data were processed

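Poly(A) RNA of 6 libraries (3 Ts1Cje, 3 wild type, day 4) was read from tables in which the authors deposited raw counts per Ensembl gene and, separately, TPM. Per the submitters' processing notes, FastQC 0.11.7, Trimmomatic 0.38, HISAT2 2.1.0, featureCounts 1.6.3 and mm10 were used; the sources used here give neither their order and settings nor the strand. In R 4.3.3 with edgeR 4.0.16, filterByExpr (at least 10 counts, 15 in total) kept 17315 genes, TMM scaled the libraries, and the robust quasi-likelihood test compared the groups with no covariate; p-values were adjusted by Benjamini and Hochberg's method over the 17315 genes, with a threshold of 0.05. All adjusted p-values of the text come from it unless another is named. Fold changes are log2, Ts1Cje over wild type, with an approximate SE (its size divided by the root of the F statistic); CPM are TMM-scaled, given per replicate 1 to 3 or as mean ± SD (n = 3 each). The test was tried on simulated counts. Members with a value in every library were those with the 12 smallest adjusted p-values, the highest and lowest of each class, and Mki67, Cdk1, Ccnb1 and Aurkb; from each pathway list at most 3 called genes with the smallest adjusted p were named. The members, lists and classes were chosen with earlier results of these data known. Alternatives were run with DESeq2 1.42.0 and limma 3.58.1, other scalings and filters, a replicate block and each library left out.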

Additional observations from a re-analysis of the deposited data

How the results depend on the processing

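Across 15 alternative settings, 18 to 26 of the 42 mitotic genes were lower and 0 were higher, and 17 of the 23 lower genes were lower in every one. The calls of Bub3, Mad2l1, Ttk, Cenpf, Kif11 and Ncaph were lost in at least 1 setting, and no called gene changed sign. Of the 19 genes not called, 6 were called lower in at least 1 setting: Ccnb2, Aurkb, Cenpe, Ndc80, Kif23 and Prc1. Upper-quartile scaling, which moved the median of all genes to −0.035, gave a median of −0.25 for the 42 genes, −0.26 for the checkpoint, −0.21 for the pathway lists, 3 lower cyclins and kinases, 5 lower genes of the mitotic entry switch (4 with the replicate block), and −0.010 for Cdca8. On log2(TPM + 1) and log2(TPM + 0.1) with limma, 3 checkpoint genes were lower. With 1 library left out, the ranges were −0.26 to −0.21 for the median of the 42 genes, 2 to 4 lower checkpoint genes with medians of −0.24 to −0.20, 1 to 2 lower cyclins and kinases with medians of −0.091 to −0.031, medians of −0.42 to −0.32 for condensin and −0.36 to −0.27 for cohesion and separase, and log2 fold changes of −0.091 to 0.017 for Ccna2, −0.019 to 0.17 for Ccnb1, −0.041 to 0.0032 for Incenp, −0.012 to 0.040 for Cdca8 and −0.13 to 0.0056 for Spc24. The causes were not tested.

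The labels do not say whether lots of the same number belong together. Correlations of their deviations from the group means were 0.22, 0.059 and 0.20. Each Ts1Cje library correlated best with the wild-type library of its own number, a hint from the data and not from the design. The best partner of each wild-type library was not looked for. With the replicate block, 26 members and 2 cyclins and kinases were lower. Counts per member and library ran from 335 to 16980, and the SE of the log2 fold changes ran from 0.052 to 0.10 with 3 libraries a group.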
